A study of Arabidopsis thaliana with 12 samples.

Results

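The chloroplast enzymes SBPASE (AT3G55800, sedoheptulose-bisphosphatase) and PRK (AT1G32060, phosphoribulokinase) were followed through an array experiment on excess proline. Both are named by their locus, and each was read by 1 array probe annotated to that gene alone, so the account covers 2 of the 691 loci with a single name, on an array of 3439 probes. No probe annotated to several genes included either of them. The tested plants were wild-type Arabidopsis thaliana of the Wassilevskija ecotype given 100 mM proline for 48 h, which the labels describe as leading to toxic cellular proline (6 samples). The plants they were set against were wild type of the same ecotype, labelled as water and also described as having no treatment (6 samples). Tissue, age and growth conditions are not given in the labels, and they do not state whether each sample was a separate plant or culture, so every p-value here is measured against a sample-to-sample spread that may be technical.

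In the Calvin cycle, Rubisco fixes carbon dioxide onto ribulose bisphosphate, and most of the remaining enzymes rebuild that acceptor. SBPASE removes a phosphate from sedoheptulose bisphosphate, an irreversible step of the rebuilding branch, and PRK carries out the last step, the phosphorylation of ribulose phosphate to the acceptor itself. Both are encoded in the nucleus, work in the chloroplast stroma of green tissue and are switched on in the light through reduction of cysteines by thioredoxins, and PRK is also held inactive in a complex with the small protein CP12 and glyceraldehyde phosphate dehydrogenase.

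The deposited values are relative intensities on a linear scale with no stated unit, so they are compared between samples of 1 gene and not between genes. In each group, samples numbered 1 and 2, 3 and 4, and 5 and 6 resemble each other and are called sets 1, 2 and 3. The median of the values above 0 was 0.0335 to 0.0963 on the proline arrays and 0.0325 to 0.0812 on the water arrays, and set 3 had the low medians in both groups. Values of 0 made up 10.2% to 12.3% of each proline array and 4.45% to 6.83% of each water array, but neither SBPASE nor PRK was at 0 in any sample. Green tissue was represented by the 4 measured genes of the light reactions. The antenna gene LHB1B2 (AT2G34420) was brighter than 99.2% to 99.5% of the probes on the proline arrays and 99.4% to 99.7% on the water arrays. In the same order the ranges were 99.56% to 99.77% and 99.42% to 99.71% for PSBW. They were 94.2% to 98.2% and 97.3% to 98.3% for PSAN, and 89.85% to 91.6% and 90% to 94.3% for PSBY. None of the 6 root and 3 seed markers had a probe of its own, so the presence of those tissues was not tested, and in bulk RNA fewer green cells and less RNA per cell cannot be told apart.

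SBPASE transcript had lower readings in proline samples than in water samples within every set, but the difference did not pass the threshold in the fit across all features. The deposited intensity of SBPASE in proline samples was 0.0551 and 0.0553 in set 1, 0.0427 and 0.0596 in set 2, and 0.00260 and 0.0200 in set 3. In water samples it was 0.0641 and 0.0750 in set 1, 0.0890 and 0.0705 in set 2, and 0.0447 and 0.0482 in set 3. The groups overlapped when pooled, because the water samples of set 3 lay below most proline samples of sets 1 and 2, and they did not overlap within any set. Of the 2337 features with a value above 0 in every sample, 8.99% had deposited readings that were lower with proline without overlap in all 3 sets. The lowest reading by far was that of proline sample 5, whose partner, sample 6, was the second lowest.

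PRK transcript was lower in proline samples of set 2 and at nearly the same deposited level in both groups of sets 1 and 3. The deposited intensity of PRK in proline samples was 0.363 and 0.395 in set 1, 0.299 and 0.318 in set 2, and 0.217 and 0.243 in set 3. In water samples it was 0.356 and 0.392 in set 1, 0.598 and 0.532 in set 2, and 0.223 and 0.218 in set 3. Only in set 2 did all proline readings of PRK lie below all water readings (61.2% of the 2337 features did so in at least 1 set), and there the mean of the proline samples was 0.546 of the mean of the water samples. The same ratio was 1.01 in set 1 and 1.04 in set 3.

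**Figure D1:**
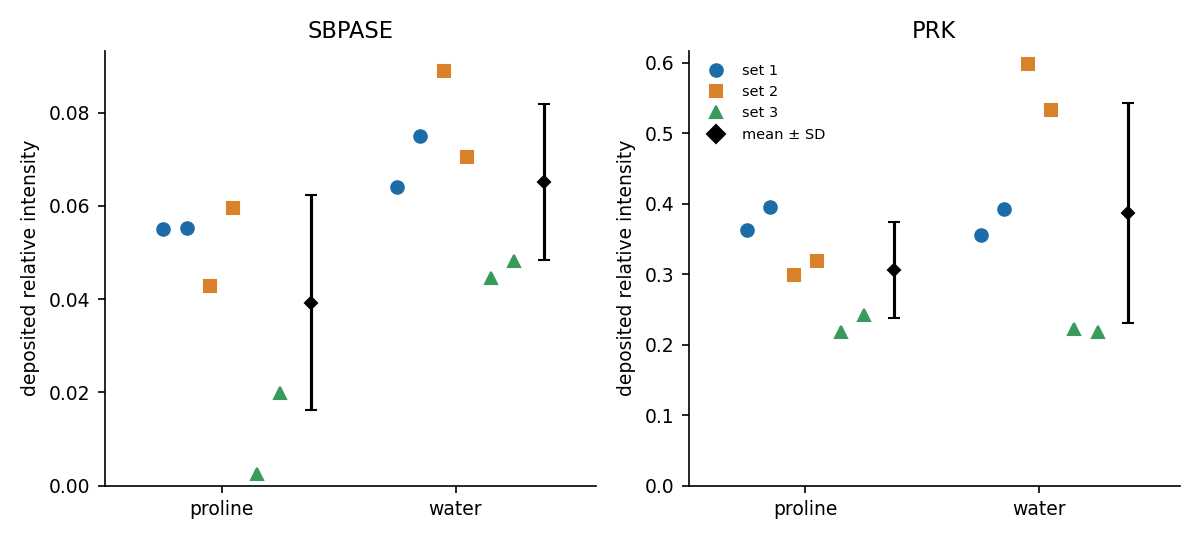
Deposited relative intensity (linear axis from 0, no stated unit) of SBPASE and PRK in the 6 proline and 6 water samples. Symbols mark the 3 sets, and the diamond with a bar is the mean ± SD of 6 samples. SBPASE lies at 0.00260 to 0.0596 with proline and 0.0447 to 0.0890 with water, and the large gap for PRK is that of set 2.

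The mean deposited intensity of SBPASE was 0.0392 ± 0.0230 in proline samples and 0.0652 ± 0.0167 in water samples (SD, n = 6 each), a ratio of 0.601. An exact two-sided permutation test over the samples gave p = 0.0498, and p = 0.268 after Benjamini-Hochberg adjustment over 3427 features. Of those features, 18.6% had an unadjusted p under 0.05 in this test and 0% passed after adjustment. Leaving out 1 sample moved the SBPASE p to between 0.0303 and 0.113, with the values above 0.05 coming from leaving out proline sample 3, 5 or 6 or water sample 1, 2, 3 or 4. For PRK the means were 0.306 ± 0.0683 in proline samples and 0.387 ± 0.156 in water samples (SD, n = 6 each), a ratio of 0.791 (exact permutation p = 0.290, and 0.584 adjusted over the 3427 features).

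Dividing each reading by the median of the values above 0 on its own array put the 12 arrays on a common median. On that scale SBPASE ran from 0.0753 to 0.854 in proline samples, with a median of 0.587, and from 0.845 to 1.44 in water samples, with a median of 1.03. The ranges overlapped by 1 sample of each group, since proline sample 4, at 0.854, lay just above water sample 1, at 0.845. SBPASE was lower with proline on this scale, with a mean of 0.551 ± 0.256 against 1.11 ± 0.252 in water samples (SD, n = 6 each), a ratio of 0.497. Exact permutation, with all 12 samples taken as separate, gave p = 0.00433, and 0.0421 adjusted over 3427 features, of which 10.3% passed. Without proline sample 5 the ratio was 0.583 and the unadjusted exact permutation p was 0.00649. The set means of SBPASE were 0.575, 0.742 and 0.335 in proline and 0.884, 1.03 and 1.41 in water, and with them as the samples p = 0.1 by exact permutation, which 3 against 3 cannot go below. PRK on the same scale had a mean of 5.06 ± 1.38 in proline samples and 6.26 ± 1.22 in water samples (SD, n = 6 each), with ranges that overlapped widely (exact permutation p = 0.117, and 0.291 adjusted over 3427 features). On the log2 scale, with each array centred on its median, the SBPASE change was -1.28 ± 0.50 (SE). It did not pass in limma (adjusted p = 0.111).

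After log2 transformation and quantile normalization between arrays, SBPASE had a mean of -5.14 ± 1.10 in proline samples and -3.98 ± 0.32 in water samples (SD, n = 6 each). Its log2 change was -1.16 ± 0.44 (SE), with a 95% interval of -2.11 to -0.21, so its level with proline was 0.448 of that with water. PRK had a mean of -1.85 ± 0.23 in proline samples and -1.30 ± 0.37 in water samples (SD, n = 6 each), a log2 change of -0.56 ± 0.22 (SE) with an interval of -1.02 to -0.09, or 0.680 of the water level. Neither passed in limma over 3045 tested features, with adjusted p = 0.0939 for SBPASE and 0.101 for PRK. In that fit 13.2% of the features passed and 7.65% were called lower with proline, a share that moved to 4.2% with each array centred on its median and 6.24% with cyclic loess, where 7.03% and 7.36% were called higher. Over all tested features the median log2 change was -0.16, and 9.46% of them had a lower change than SBPASE and 30.5% a lower change than PRK. Relative to that median the changes of SBPASE and PRK were -0.997 and -0.39.

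That fit treats all 12 samples as separate replicates. With each set of a group as a random block, with a consensus correlation of 0.593 over all features, the adjusted p was 0.413 for SBPASE and 0.239 for PRK, against 2.69% of features called. SBPASE's SE widened to 0.70 in that fit and that of PRK to 0.25. With set means as samples, 3 against 3, the limma adjusted p was 0.339 and 0.493, and 0% of features passed (472 of 3269 had an unadjusted p under 0.05).

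On the normalized scale the differences of both genes varied over the sets. For SBPASE the proline minus water difference was -0.62 (set 1), -0.46 (set 2) and -2.40 (set 3). For PRK it was -0.46 (set 1), -1.23 (set 2) and 0.02 (set 3). Set 3 thus held the largest difference of SBPASE and almost none of PRK, and set 2 the largest of PRK. By the deposited ratio of proline to water, SBPASE had its smallest difference in set 1 (0.794, against 0.642 in set 2). On the normalized scale it was smallest in set 2. SBPASE did not overlap between the groups, lower with proline, in all 3 sets, which held for 14.9% of the 2337 features on this scale. PRK did so in 2 sets, sets 1 and 2, where 38% of features did so in at least 2. In set 1 this separation of PRK appeared only after normalization, since its deposited ratio of proline to water there was 1.01. Whether the change differed between the sets was tested in limma as an interaction, with partners taken as independent. PRK passed (adjusted p = 0.0104) and SBPASE did not (adjusted p = 0.278), while 22.9% of the features passed this test.

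Paired by sample number, all 6 differences of SBPASE were below 0, from -0.12 for number 4 to -3.68 for number 5, the second largest being -1.11 for number 6. For PRK 5 of the 6 were below 0, from -0.06 for number 5 to -1.34 for number 3, and number 6 stood at 0.10. The share of all features with such counts was not computed. Over all samples 1797 of the 3045 tested features had a log2 change below 0. The spread between partners differed most between the genes in proline set 3. Partners differed in PRK by 0.07 to 0.14 on the log2 scale in proline and 0.02 to 0.16 in water, below the median gap of all features in every set. Partners differed in SBPASE by 0.01, 0.39 and 2.62 in the proline sets and by 0.20, 0.29 and 0.04 in the water sets. These gaps were above the median gap of all features only in proline sets 2 and 3. The gap of 2.62, between proline samples 5 and 6, was wider than that of 96.9% of features in the same set. The SBPASE change of -1.16 over all samples rests in part on sample 5. Without proline sample 5 the SBPASE change was -0.71 ± 0.22 (SE, limma adjusted p = 0.0514), and without proline samples 5 and 6 it was -0.69 ± 0.23 (limma adjusted p = 0.0591).

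**Figure D2:**
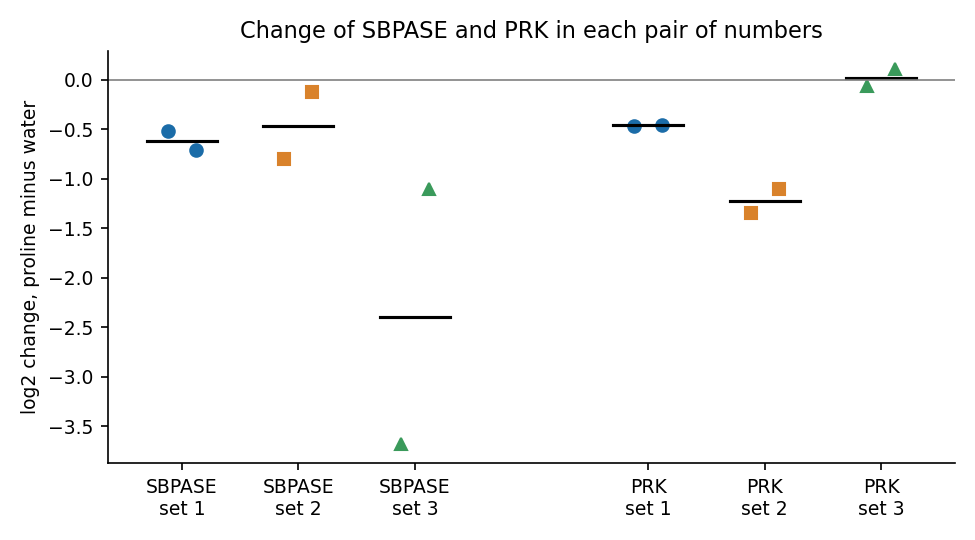
Log2 change, proline minus water, of SBPASE and PRK after quantile normalization. Each symbol is the proline sample minus the water sample of the same number and each bar the mean of its set. SBPASE is at -2.40 in set 3, where its numbers lie at -3.68 and -1.11, and PRK is at -1.23 in set 2 and 0.02 in set 3.

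The probes of the enzymes differed in brightness. SBPASE was a mid-range probe on every array but that of proline sample 5. It was brighter than 14.5% to 51.8% of the probes on the proline arrays and 46.7% to 62.2% on the water arrays. The 14.5% was its place in proline sample 5, where 10.2% of probes were at 0. PRK was a bright probe, above 84.3% to 88.4% of probes with proline and 87.2% to 91.7% with water. The part of brightness in the spread of SBPASE was not tested. To ask whether the change of SBPASE was larger than that of PRK, the difference of their normalized log2 values was taken within each sample. It averaged -3.28 ± 1.22 in proline samples and -2.68 ± 0.53 in water samples (SD, n = 6 each), a log2 difference between the groups of -0.60 (exact permutation p = 0.342). The difference between the changes of the 2 enzymes was within the spread between samples, and it turned to 0.30 without set 3 (exact permutation p = 0.200). It stood at -1.28 without set 2 (exact permutation p = 0.0286, the lowest possible with so few samples).

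SBPASE and PRK were the 2 measured members of a list of 25 genes of the Calvin cycle, so Rubisco, its activase, the aldolases and the transketolases were not measured under a single name. Neither passed in limma, and the median log2 change of the pair was -0.86, against -0.16 for all tested features. The list of 12 thioredoxin-system genes that act on such enzymes had 2 measured members, NTRC above 0 and AT2G04700 below 0, and neither passed. AT2G04700 turned to 0.02 with median centring and 0.07 with no normalization between arrays. NTRC (AT2G41680), an NADPH-dependent thioredoxin reductase of the chloroplast, had a median deposited intensity of 0.125 in proline samples (0.0258 to 0.203) and 0.0517 in water samples (0.0313 to 0.130). The groups overlapped, and its log2 change was 0.53 ± 0.42 (SE, n = 6 and 6, limma adjusted p = 0.410). Without water sample 1 it was 0.23, and without proline sample 4 it was 0.33. The log2 change of NTRC was 1.38, 0.50 and -0.30 in sets 1, 2 and 3. AT2G04700, the other member, had a log2 change of -0.15 ± 0.24 (limma adjusted p = 0.707) and values of 0.22, -0.36 and -0.32 in the 3 sets.

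Of 45 genes of the light reactions 4 were measured, of which 3 were below 0, 1 was above, and none passed in limma. In the same fit 1797 of all 3045 tested features were below 0. Their median log2 change was -0.59, and -0.32 with median centring and -0.26 with no normalization between arrays. PSBW passed with median centring (adjusted p = 0.0212, limma). PSAN (AT5G64040), a subunit of photosystem I on the lumen side, had log2 changes of -0.74, -1.76 and 0.06 in sets 1, 2 and 3. LHB1B2, a chlorophyll-binding protein of the main antenna, had -0.72, -1.35 and 0.03. Both have the order over the sets seen in PRK, with the lowest value in set 2 and one near 0 in set 3. The share of all features with that order was not counted. In set 2 the arrays also differed most in values of 0, at 12.2% and 12.3% with proline and 4.51% and 4.45% with water. A link to this order was not tested. PSAN and LHB1B2 passed the interaction test in limma (adjusted p = 0.00267 for PSAN and 0.0206 for LHB1B2), as did 22.9% of the features. PSBY (AT1G67740), a small subunit of photosystem II, was at -0.50, -0.70 and -0.32, also lowest in set 2 and nearest 0 in set 3. PSBW (AT2G30570), another small subunit of photosystem II, stood at 0.20, 0.86 and 0.40, above 0 in each set, and its limma adjusted p was 0.187 over all samples. No gene of photorespiration, starch and sucrose synthesis or the oxidative pentose phosphate pathway from lists of 12, 10 and 8 was measured under its own name.

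**Figure D3:**
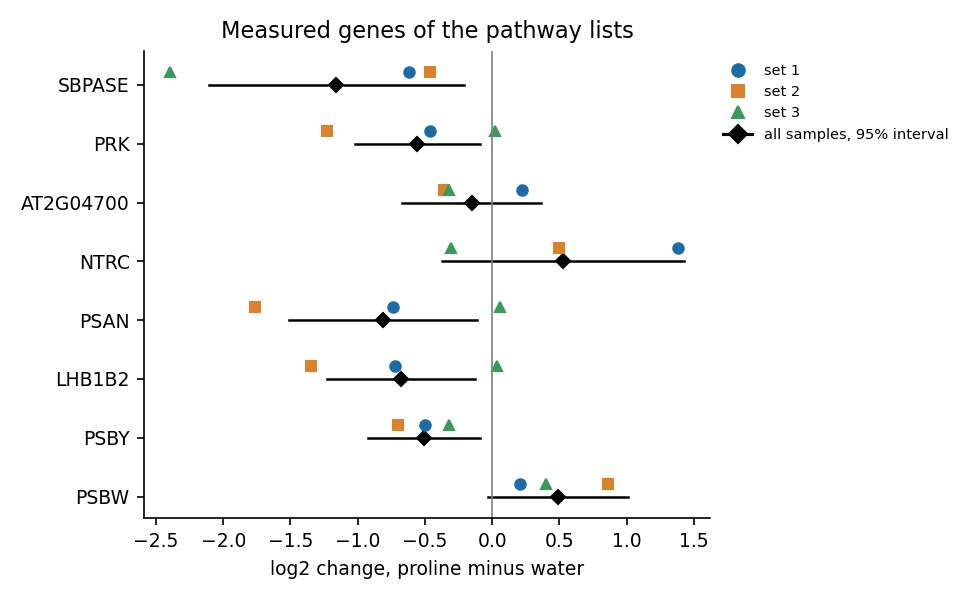
Log2 change, proline minus water, of the 8 measured genes of the pathway lists. Diamonds with lines are the estimates over all samples with 95% intervals from limma, and coloured symbols the 3 sets. PRK, PSAN and LHB1B2 share the order of the sets, with set 2 lowest and set 3 near 0, and SBPASE has set 3 lowest.

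The loci whose normalized values followed those of each enzyme most closely were sought by Pearson correlation over the 12 samples among 445 other named loci with a value in every sample. The 12 samples share groups and sets, so these correlations are descriptions. For PRK the closest were LHB1B2 (r = 0.918), AT3G13120 (0.893), AT2G40980 (0.891), CUTA (AT2G33740, a copper-binding chloroplast protein, 0.862) and AT2G47360 (0.842), and PSAN ranked 12 of 445 (0.803). Without proline sample 5 the correlations of these 5 with PRK were 0.862 to 0.930. The profiles of these loci had low values in proline samples 1 to 4 and high values in water samples 3 and 4. AT2G40980 and CUTA were lower with proline, by 0.96 and 1.32 on the log2 scale (limma adjusted p = 0.0157 and 0.0136). The other 3 did not pass (0.0811 for AT3G13120, 0.0924 for LHB1B2 and 0.162 for AT2G47360). All 5 were picked for their likeness to PRK over the same samples, so these tests are not separate from the PRK difference. With the sets as random blocks CUTA alone of the 5 passed in limma (adjusted p = 0.0475). Neither CUTA nor AT2G40980 passed with median centring (limma adjusted p = 0.108 and 0.175), with no normalization (0.147 and 0.310), without set 2 (0.139 and 0.166), without water samples 3 and 4 (0.0664 and 0.0705) or with set means (0.302 and 0.335).

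For SBPASE the closest loci were AT2G14660 (r = 0.913), AT5G38310 (0.892), AT4G39570 (0.880), AT1G02260 (0.824) and AT3G13150 (0.819). The likeness of the first 4 was carried in large part by proline sample 5, and that of AT3G13150 was not. Without that sample the correlations of the first 4 with SBPASE were 0.488, 0.588, 0.358 and 0.640, and that of AT3G13150 was 0.817. The loci closest to SBPASE were then AT1G72640 (r = 0.909), AT5G56070 (0.904), DAL1 (0.903), AT1G62250 (0.881) and AT2G47390 (0.88). In proline sample 5 the deposited intensity was 0.000603 for AT2G14660, 0.000462 for AT5G38310 and 4.59e-05 for AT4G39570, the lowest of all samples for each. None of the 5 loci closest over all samples passed in limma over all features (adjusted p = 0.0529 to 0.373). With the replicate number as a block AT5G38310 passed (limma adjusted p = 0.0337), and it passed in 10 of 29 settings and AT3G13150 in 7. PRK ranked 143 of 445 among the loci most like SBPASE (r = 0.276, and 0.501 without proline sample 5), and SBPASE ranked 196 of 445 for PRK.

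**Figure D4:**
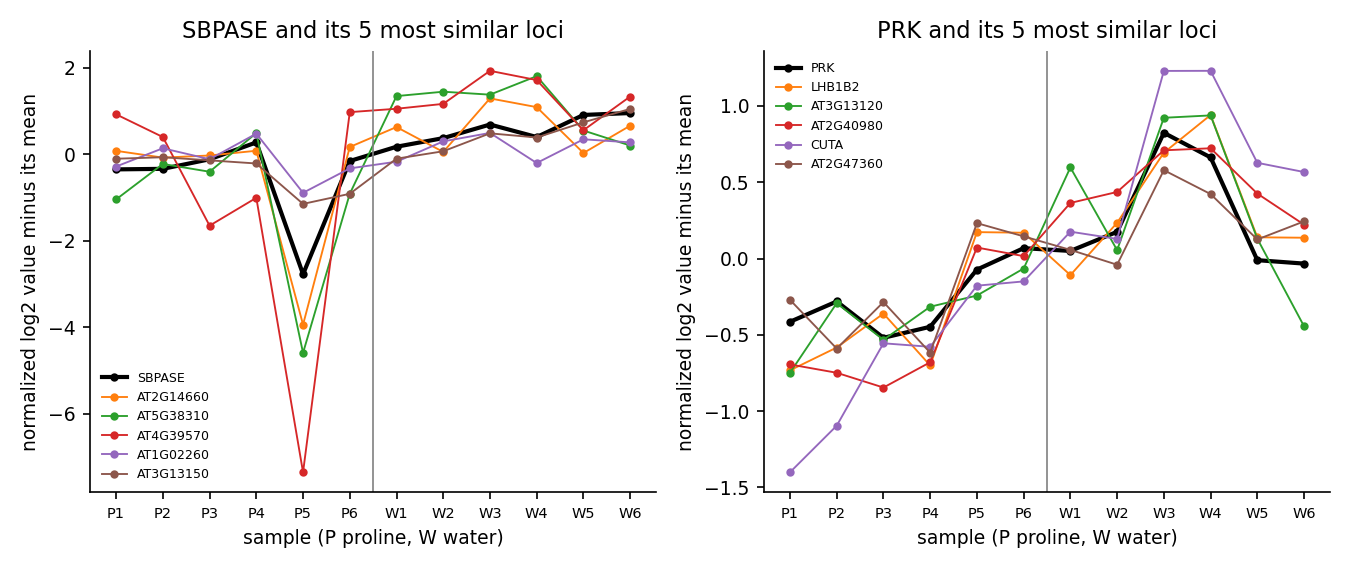
Normalized log2 value minus the mean of its locus in each sample, with proline samples P1 to P6 on the left and water samples W1 to W6 on the right, for each enzyme (black) and its 5 most similar loci. The SBPASE panel is dominated by proline sample 5, and the PRK panel by low values in P1 to P4 and high values in W3 and W4.

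The log2 change of SBPASE was below 0 in all 29 other settings tried, from -0.26 to -1.50, with an adjusted p of 0.0514 to 0.413 in limma, so it passed in none of them. PRK was also below 0 in all 29, from -0.23 to -0.81, with an adjusted p of 0.0603 to 0.706. Relative to the median change of all features in the same setting, both stayed below 0, at -0.25 to -1.40 for SBPASE and -0.12 to -0.67 for PRK. The values of SBPASE nearest 0 came from adding an offset of 0.1 to each reading, which is larger than any SBPASE reading and shrinks its change.

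**Figure D5:**
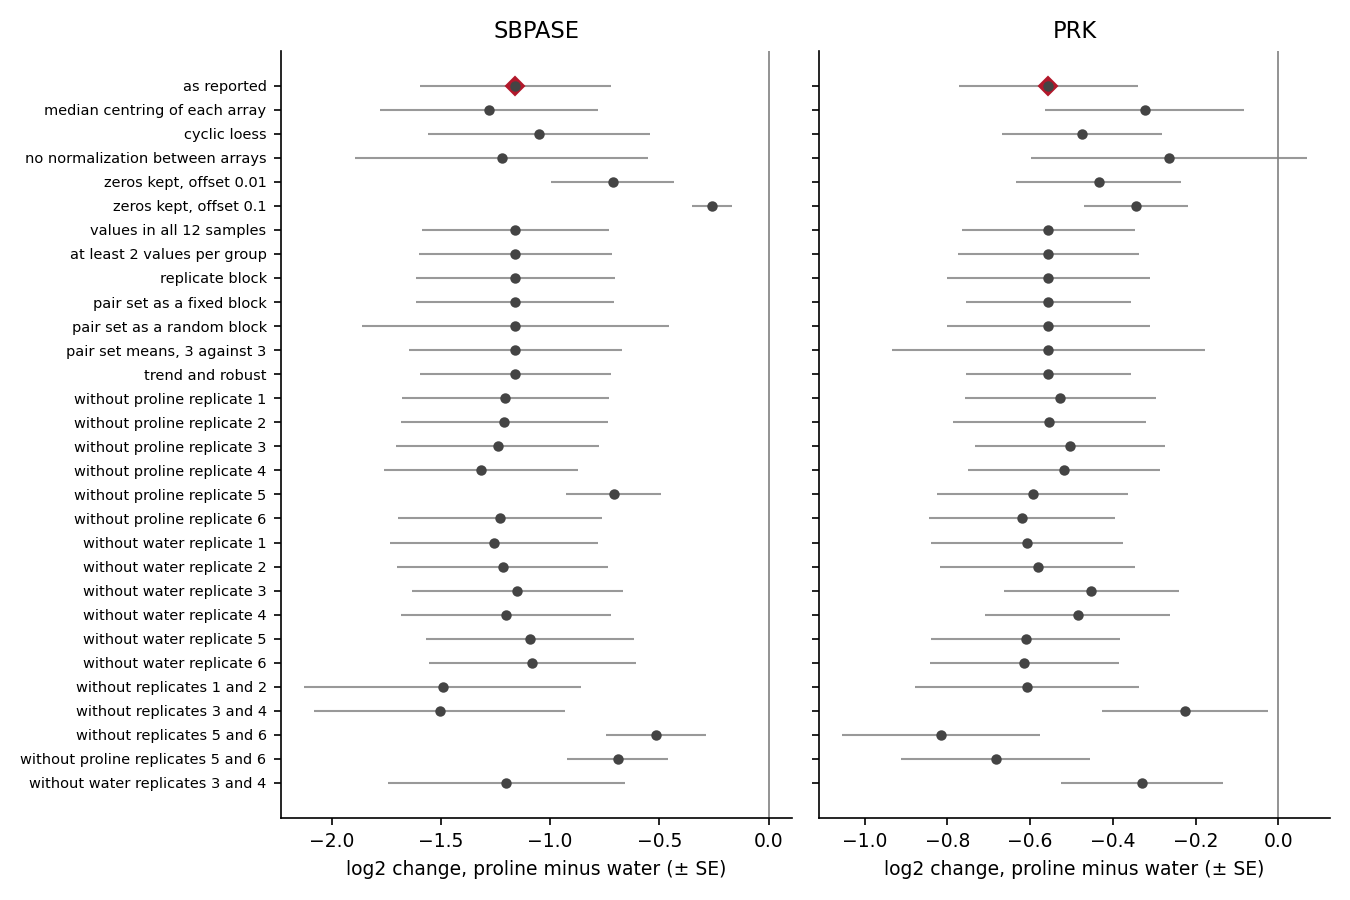
Log2 change, proline minus water, with its SE for SBPASE and PRK as reported (red diamond) and in 29 other settings of normalization, zeros, blocks and samples left out. Every value lies below 0, at -0.26 to -1.50 for SBPASE and -0.23 to -0.81 for PRK.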

How the data were processed

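The authors deposited 1 table of relative intensity values for 3439 probes and 12 samples, between 0 and 61.4, of which 8.43% were 0. The unit was read from the values; how the arrays were scanned, corrected and scaled is not given in the sources used here. Depth does not apply to arrays, and the number of arrays limits the precision. Of the probes, 692 had 1 gene in the platform annotation, which can be old, 870 several and 1877 none listed; names were updated by gene identifier through the TAIR10.1 gene table, in which 2 identifiers were not found. No coordinates are given, since no build is named.

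Zeros were set to missing, the rest log2-transformed and quantile normalized, and probes of a locus averaged. Features with at least 4 values per group were tested with limma 3.58.1 (R 4.3.3, statmod 1.5.0), Benjamini-Hochberg adjusted, with a call at an adjusted p under 0.05; 393 features were left out. The test was checked on simulated data with independent samples, so that check does not cover the correlation between partners. The members, the pathway lists and the rule for named genes were chosen with earlier results of these data known; the rule names the 2 enzymes, every measured list member and the 5 most similar loci of each enzyme. The interaction test, the likeness without proline sample 5 and the adjusted permutation tests were added later. Deviations from the group mean of same-numbered samples correlated at 0.134 to 0.256 in all 6 pairs, against 0.0259 to 0.124 for other numbers of the same set and -0.144 to 0.0273 for other sets, so the numbers were taken to pair the samples, from the data and not from the labels. Figures were drawn with matplotlib 3.10.9 (Python 3.11.15).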

Additional observations from a re-analysis of the deposited data

Results flagged for a closer look

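In 4 of 34 groups of 6 normalized log2 values, the gap between 1 sample and its nearest neighbour took up an unusually large share of the group's range (Dixon's ratio test), which chance gives in about 1 in 20. In each case it was proline sample 5. It lay at -7.33 for SBPASE (nearest sample -4.91), at -9.20 for AT2G14660 (-5.34), at -9.80 for AT5G38310 (-6.26) and at -12.99 for AT4G39570 (-7.29). The last 3 were named for their likeness to SBPASE over the same samples, so they are not separate evidence about that sample.

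The change with proline differed between the 3 sets for 6 of the named loci in limma's interaction test, in which 22.9% of 2337 features passed. That test took partners as independent. The adjusted p was 0.0104 for PRK, 0.00267 for PSAN, 0.0206 for LHB1B2, 0.00479 for AT3G13150, 0.0110 for AT2G40980 and 0.0206 for CUTA. AT2G40980 and CUTA were below 0 in every set, at -1.12, -1.48 and -0.28 and at -1.40, -1.80 and -0.76. AT3G13150 had its lowest value, -1.92, in set 3. LHB1B2, AT2G40980 and CUTA were among the loci closest to PRK over the same samples, and AT3G13150 among those closest to SBPASE. Their results are therefore not separate from the patterns of the enzymes.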

How the results depend on the processing

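The SBPASE and PRK changes kept their direction and did not pass in limma in any of the 29 alternatives; leaving out 1 sample gave -1.32 to -0.71 for SBPASE and -0.62 to -0.45 for PRK. With the replicate number as a block the adjusted p was 0.120 and 0.156 and 436 features passed, against 401 without it; it changed no call of either enzyme, and of the other named loci it added AT5G38310 (adjusted p = 0.0337). The number of features passing was 20 with no normalization between arrays, 783 with the set as a fixed block, 82 as a random block and 0 with set means (limma, 472 with an unadjusted p under 0.05). It was 245 to 480 without 1 sample, with 245 and 248 coming from leaving out water samples 3 and 4, 619, 61 and 265 without sets 1, 2 and 3, where 4 values of 4 were required, and 145 without water samples 3 and 4 together. The SBPASE minus PRK difference reversed to 0.0871 with an offset of 0.1 and to 0.30 without set 3, and was -0.80 to -0.12 without 1 sample. Without set 2 it was -1.28, the only setting with an unadjusted exact permutation p under 0.05 (0.0286). That is the lowest p possible with so few samples. Trend, filters and the random block gave no separate value for this difference. The deposited difference of SBPASE, -0.0260, which did not pass after adjustment over all features, had an unadjusted exact permutation p of 0.0498 over samples and 0.300 with set means, where no p under 0.1 can be reached, and over the samples left out ran from -0.0301 to -0.0187; scaled by the array median with set means it was -0.558 (exact permutation p = 0.1). Of the light reactions list 1 gene, PSBW, passed with median centring and 0 with quantile, cyclic loess or no normalization; PSAN, LHB1B2 and PSBW passed with the set as a fixed block, LHB1B2 with trend and robust, PSAN without proline sample 5, PSBY without water sample 2, and PSAN and LHB1B2 without set 3 or without proline samples 5 and 6. The causes were not tested. Signal over background could not be computed, which limits what can be said of dim readings such as SBPASE in proline sample 5.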
